A study of Mus musculus with 6 samples.

Results

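Osteoblasts lay down the mineralised matrix of bone, and osteocytes are the cells that remain embedded in it. The genes described here encode osteoblast factors and proteins that take part in mineral deposition: the transcription factors Runx2, Sp7 (osterix) and Dlx5, the enzyme Alpl (tissue-nonspecific alkaline phosphatase), the matrix proteins Sparc (osteonectin), Ibsp (bone sialoprotein), Spp1 (osteopontin), Dmp1 (dentin matrix protein) and Mepe, and the membrane peptidase Phex. Of these 10 listed genes, 8 had a probe set annotated to no other gene, and together they had 11 of the 20380 such probe sets in the table and were 8 of its 12393 genes. Runx2 and Spp1 had no probe set annotated to them alone and were not analysed here. Of the 8, 5 had 1 probe set each, and Ibsp, Phex and Sparc had 2.

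RNA came from cochleae of C57BL/6J mouse embryos at embryonic day 18.5, taken with the otic capsule, the cartilage and bone around the inner ear, and without vestibular tissue. Igf1 null embryos (Igf-1-/-, 3 pools) were compared with wild type embryos (Igf-1+/+, 3 pools), offspring of heterozygous parents. Each pool held 4 cochleae and was hybridised to 1 single-channel Affymetrix array. The labels do not describe the null allele. The titles and descriptions give the genotypes used here, whereas the source field carries the wild type sign for all 3 null pools.

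In mouse bone, Runx2 and then Sp7 are required for osteoblasts to form, and Dlx5 acts with them in the skull. Alpl removes phosphate from inhibitors of mineralisation and so lets mineral form. Ibsp, Spp1, Dmp1 and Mepe are secreted proteins that bind mineral or regulate its growth, and Phex, the gene lost in X-linked hypophosphataemia, is made by osteoblasts and osteocytes, as is Dmp1. The otic capsule forms first as cartilage and is later replaced by bone. In the RefSeq annotation of GRCm38.p6, the protein-coding genes Dspp, Dmp1, Ibsp, Mepe and Spp1 follow each other in that order on chromosome 5, while Phex lies on chromosome X.

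The 250 bases before the annotated starts of Dmp1, Ibsp and Phex are shown because these genes had the widest spread among the null pools of the members above background. They are RefSeq sequences of GRCm38.p6, written 5′ to 3′ in the direction of the gene, and capitals mark matches to 5 motifs searched on both strands: the RUNX core TGTGGT, the homeodomain core TAATTA, the GC box GGGCGG, the TATA box TATAAA and the CCAAT box CCAAT. No matches overlapped in these windows.
Dmp1 first start, chr5:104197325-104197574, plus strand: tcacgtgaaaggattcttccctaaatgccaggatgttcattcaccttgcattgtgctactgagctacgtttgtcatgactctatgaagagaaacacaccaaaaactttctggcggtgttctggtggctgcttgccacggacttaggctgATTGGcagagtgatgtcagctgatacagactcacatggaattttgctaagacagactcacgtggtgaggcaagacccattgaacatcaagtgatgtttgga
Dmp1 second start, chr5:104202367-104202616, plus strand: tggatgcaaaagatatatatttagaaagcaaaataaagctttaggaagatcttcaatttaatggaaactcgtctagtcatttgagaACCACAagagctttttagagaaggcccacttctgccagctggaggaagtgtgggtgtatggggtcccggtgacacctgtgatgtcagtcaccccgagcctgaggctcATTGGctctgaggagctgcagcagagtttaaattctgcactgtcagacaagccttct
Ibsp, chr5:104299037-104299286, plus strand: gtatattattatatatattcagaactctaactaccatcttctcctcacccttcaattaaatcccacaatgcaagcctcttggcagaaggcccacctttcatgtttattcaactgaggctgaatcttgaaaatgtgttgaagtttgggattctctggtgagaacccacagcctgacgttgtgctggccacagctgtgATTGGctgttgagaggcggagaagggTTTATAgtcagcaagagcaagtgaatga
Phex, chrX:157415287-157415536, minus strand: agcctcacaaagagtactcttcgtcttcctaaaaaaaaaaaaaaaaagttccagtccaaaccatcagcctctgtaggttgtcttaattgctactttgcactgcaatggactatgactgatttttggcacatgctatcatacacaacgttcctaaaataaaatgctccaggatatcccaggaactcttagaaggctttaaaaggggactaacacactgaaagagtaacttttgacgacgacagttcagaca
Upstream of Ibsp, a TATA box on the opposite strand (capitals TTTATA) began 28 bases before the start. A CCAAT box on the opposite strand (capitals ATTGG) began 54 bases before it. A reversed TATA box and a reversed CCAAT box near the start are known from the bone sialoprotein promoter of the rat. Upstream of the first Dmp1 start there was 1 match, the reversed CCAAT letters ATTGG at 101 bases. The second Dmp1 start had ATTGG at 57 bases and the reversed RUNX core ACCACA at 164 bases. None of the 5 motifs was found in the Phex window. Of the 10 genes, 8 had entries, 11 in all. Sp7 and Dlx5 had none, whereas Runx2 and Spp1, whose signal was not analysed, had entries. Of these 11 windows, 4 held the RUNX core, against 14% of all 32851 windows of this length. They were the second Dmp1 window, the first Spp1 window and those of Mepe and Runx2. The TATA box was in 4 of the 11, against 12.4% of all windows, the CCAAT box in 5, against 33.8%, the homeodomain core in 2, against 4.84%, and the GC box in 1, against 32.7%. These matches describe the letters only.

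Values below are log2 signals after quantile normalization, differences are null minus wild type on that log2 scale, and each gene's value was compared only with its own value in other arrays. Deposited array medians ran from 5.61 to 6.37. Signal at the 3 Igf1 probe sets was lower in every null array than in every wild type array, by -0.99, -0.55 and -0.46. None passed an adjusted p of 0.05 in limma (adjusted p = 0.600, 0.889 and 0.887). Igf1 signal remained in the null arrays, which averaged 7.06, 6.93 and 10.59 at these probe sets. The null level was 0.502, 0.684 and 0.729 of the wild type level. Probe sets of Y-linked genes, read in the 3 arrays lowest in that signal, reached 3.87 and served as a measure of background. These arrays were null replicate 1 and wild type replicates 1 and 3. All 11 cochlear markers read were measured, and 10 of them exceeded 3.87 in every array, the exception being Otos at 2.68 to 4.28 in null and 1.76 to 4.03 in wild type arrays. The 3′ minus 5′ log2 signal of the beta-actin control probe sets, a sign of RNA integrity, was 0.89, 0.86 and 1.08 in null and 0.76, 0.71 and 0.80 in wild type arrays, higher in each null array. For the Gapdh control it was 0.18, 0.35 and 0.52 in null and 0.19, 0.32 and 0.25 in wild type arrays, which overlapped, with null replicate 1 the lowest and null replicate 3 the highest of all. The part of these measures in the bone values was not tested. The titles also hold a number whose meaning is not given, 14 for replicate 1 of each genotype and 16 for the others, and differences within each number are given beside the genes.

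Osteoblast and mineral genes had lower mean signal in Igf1 null than in wild type cochleae at 10 of the 11 probe sets, against 49.3% of all probe sets, the exception being the second, dim Phex probe set. At the brightest probe set of each gene, all 8 measured genes were lower, with a median difference of -0.32, where 48.7% of all genes were lower and the median over all genes was 0.0062. Mepe, 1 of the 8, was at background, and the other 7 had a median of -0.32. With the deposited values 75.8% of all genes were lower, with median centring 7 of the 8 members and 44.6% of all genes were, and with array weights 6 of the 8 members were. With limma and Benjamini-Hochberg adjustment over all 22626 probe sets, 0 of the 11 probe sets passed 0.05, as 0% of all probe sets and 0% of genes did, while 1130 probe sets and 612 genes had an unadjusted p under 0.05. Without adjustment 2 of the 8 genes, Dmp1 and Sparc, had p under 0.05 and lower signal, against 2.37% of all genes. In 3 of the 8, Dmp1, Sparc and Sp7, every null array lay below every wild type array, against 4.98% of all genes. The members were chosen with earlier results of these data known, so these shares are descriptions. In RNA of whole cochleae, fewer cells of a type and less RNA per cell cannot be told apart.

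**Figure D1:**
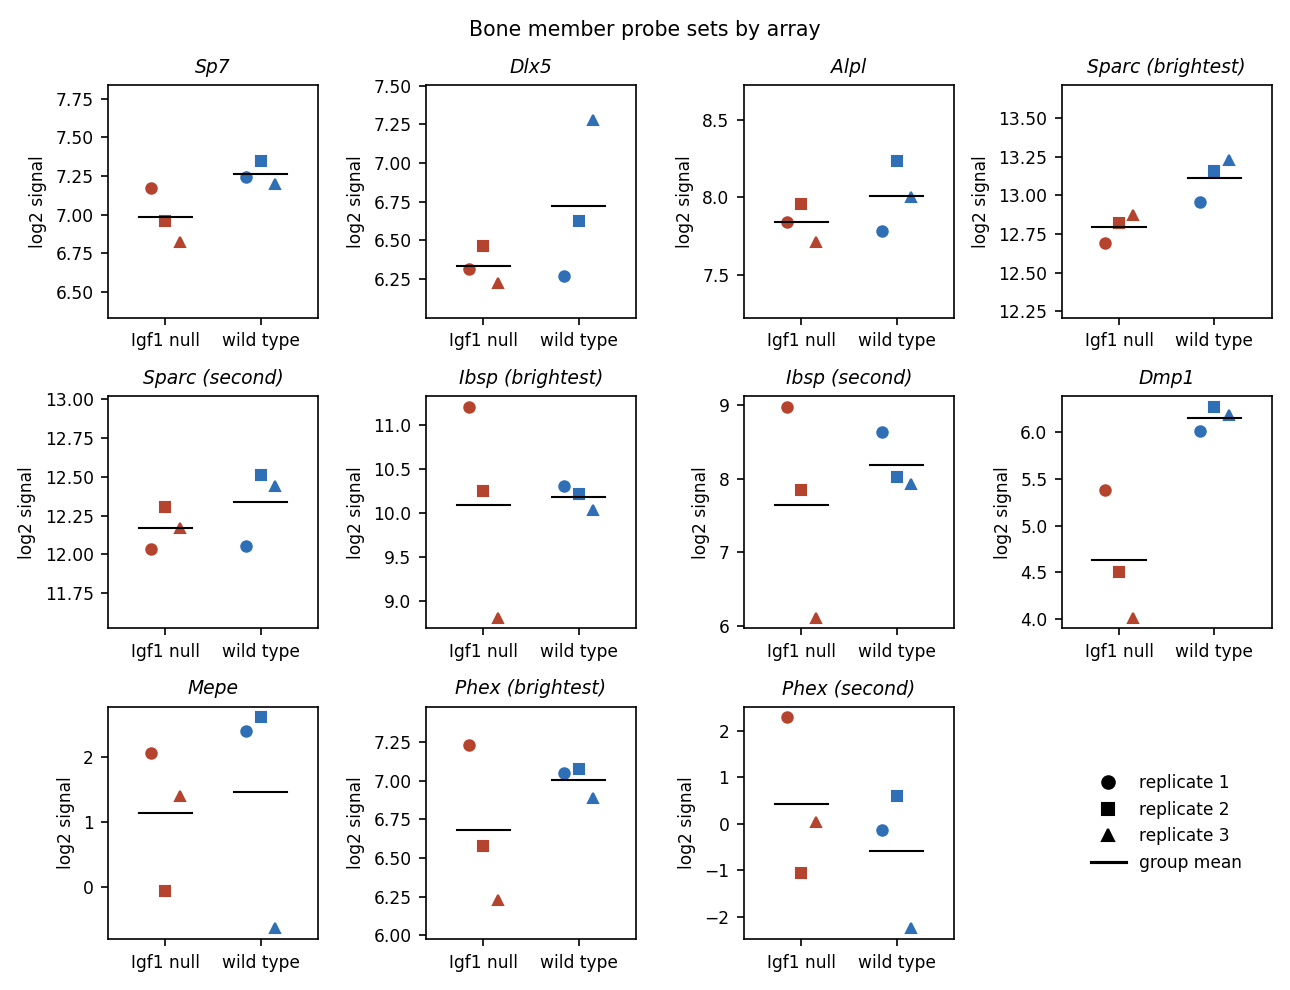
Log2 signal (vertical axes, 1 scale per panel) at the 11 probe sets of the bone genes in 3 Igf1 null and 3 wild type arrays; marker shapes give the replicate number and lines the group means. Dmp1, Sp7 and the brightest Sparc probe set have no overlap between genotypes, while the Ibsp null arrays lie on both sides of the wild type arrays.

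Dmp1, an acidic matrix protein made mainly by osteocytes, had the largest difference among members above background. Its log2 signal was 5.38, 4.51 and 4.01 in null replicates 1 to 3, against 6.01, 6.27 and 6.18 in wild type replicates 1 to 3. All null values were below the lowest wild type value, and null replicate 1 was nearest to it. The null arrays averaged 4.63 ± 0.69 and the wild type arrays 6.16 ± 0.13 (SD, n = 3 each), a difference of -1.52 ± 0.37 (SE) with a 95% interval from -2.44 to -0.60. The null level was 0.348 of the wild type level. Null replicates 2 and 3 lay near the background measure of 3.87, which limits what this ratio can show. In limma the unadjusted p was 0.00763 and the adjusted p 0.887, so Dmp1 did not pass over all probe sets. Within title number 14 the difference was -0.63 (1 array against 1), and within 16 it was -1.97 (2 against 2). With a pseudocount of 32 the Dmp1 difference was -0.84, and the range over the 15 alternatives was -1.97 to -0.84, with adjusted p from 0.530 to 0.999.

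Ibsp encodes bone sialoprotein, which is made by osteoblasts and by hypertrophic chondrocytes and nucleates mineral. Its brightest probe set read 11.21, 10.25 and 8.82 in null replicates 1 to 3, against 10.30, 10.21 and 10.04 in wild type replicates 1 to 3. Null replicate 1 was above and null replicate 3 below all wild type arrays, so the groups overlapped. The highest null array was 5.24 times the lowest, against 1.20 times in wild type. At the second probe set Ibsp read 8.98, 7.85 and 6.11 in null and 8.63, 8.02 and 7.92 in wild type arrays, with the same null arrays at the top and bottom and a ratio of 7.32 against 1.64. The mean differences were -0.09 ± 0.61 (SE) and -0.55 ± 0.75, with 95% intervals from -1.64 to 1.45 and from -2.45 to 1.36 (limma adjusted p = 0.998 and 0.986). Without null replicate 3 both Ibsp differences were above 0, at 0.54 and 0.22. Within title number 14 they were 0.90 and 0.35, and within 16 they were -0.59 and -0.99.

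Phex, the membrane peptidase of osteoblasts and osteocytes that limits their secretion of the phosphate hormone Fgf23, resembled Ibsp in which null arrays were high and low. At its brighter probe set Phex read 7.23, 6.58 and 6.23 in null arrays, against 7.05, 7.08 and 6.89 in wild type arrays. Null replicate 1 exceeded every wild type array and the other null arrays were below them. The mean difference was -0.33 ± 0.27 (SE), with a 95% interval from -1.02 to 0.37 (limma adjusted p = 0.981), and -0.10 without null replicate 3. Without null replicate 1 it was -0.60. Within title number 14 Phex differed by 0.18, and within 16 by -0.58. Phex is X-linked, and the X-linked transcript Xist read -3.93 in null replicate 2 and from 10.38 to 12.29 in the other 5 arrays; the part of this in the Phex values was not tested. The second Phex probe set ranged from -1.05 to 2.29 in null and from -2.25 to 0.59 in wild type arrays, all under the background measure.

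**Figure D2:**
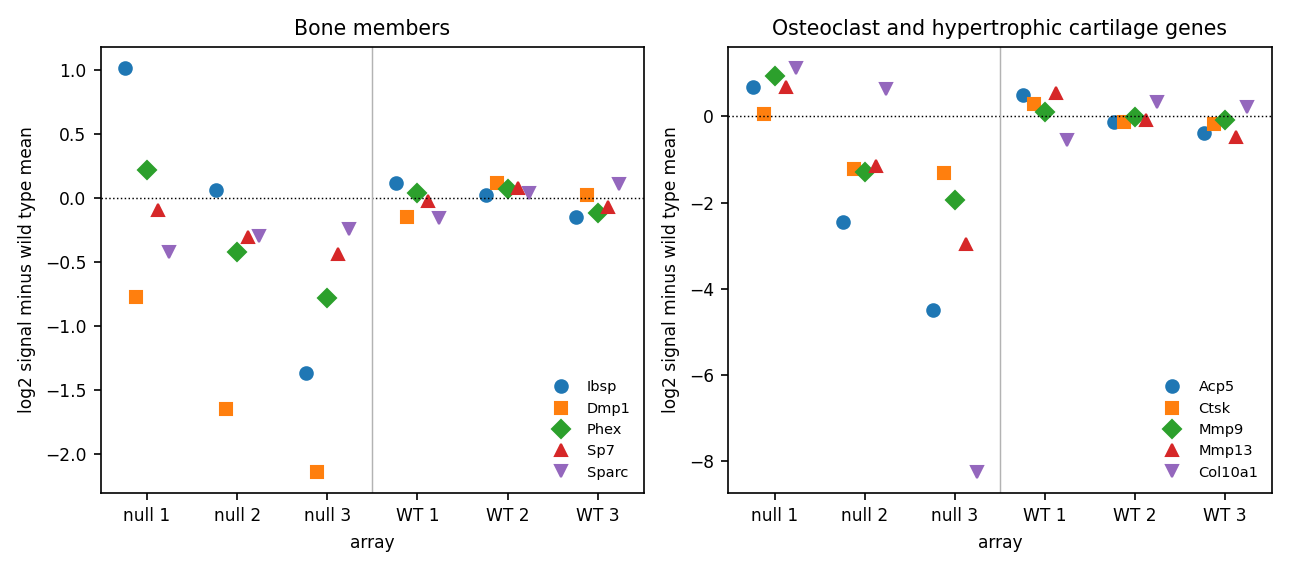
Log2 signal minus the gene's wild type mean (vertical axes, a scale per panel) in each array, for 5 bone members at the left and 5 genes of osteoclasts and hypertrophic cartilage at the right. Ibsp and Phex are above 0 in null replicate 1 and below it in null replicate 3, as are Acp5, Ctsk, Mmp9, Mmp13 and Col10a1. Dmp1, Sp7 and Sparc are below 0 in all null arrays.

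Mepe, a matrix protein of osteocytes, was not above background in any array. Its log2 signal was 2.06, -0.05 and 1.40 in null and 2.40, 2.60 and -0.63 in wild type arrays, so its difference of -0.32 ± 1.06 (SE) was taken between values at background and says nothing of its expression. Above 3.87 in all arrays were 9 of the 11 probe sets, those of Sp7, Dlx5, Alpl, Dmp1, Ibsp and Sparc and the brighter one of Phex.

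Sparc, a calcium-binding glycoprotein of bone matrix that is also made by fibroblasts, vessels and other tissue, showed a small difference. At its brightest probe set Sparc read 12.69, 12.82 and 12.87 in null arrays, against 12.96, 13.16 and 13.23 in wild type arrays. The groups did not overlap. The difference was -0.32 ± 0.13 (SE), with a 95% interval from -0.63 to -5.7e-04, a null level of 0.803 of wild type, and in limma an unadjusted p of 0.0497 and an adjusted p of 0.980. Median centring in place of quantile normalization gave -0.09 for Sparc. At the second probe set the values were 12.03, 12.30 and 12.17 in null and 12.06, 12.51 and 12.44 in wild type arrays, which overlapped, and Sparc differed by -0.17 ± 0.17 (SE), with a 95% interval from -0.59 to 0.26, or by 0.026 with median centring. Within title number 14 the brightest probe set differed by -0.26, and within 16 by -0.35.

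Sp7, the zinc finger factor that commits cells to the osteoblast fate, read 7.17, 6.96 and 6.83 in null arrays, against 7.24, 7.34 and 7.20 in wild type arrays. All null arrays were below all wild type arrays, with null replicate 1 just under the lowest of them. The difference was -0.28 ± 0.13 (SE), with a 95% interval from -0.61 to 0.06 and a limma adjusted p of 0.980. Within title number 14 Sp7 differed by -0.07, and within 16 by -0.38.

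Dlx5, a homeobox factor of osteoblasts that also acts in the early ear, read 6.32, 6.46 and 6.23 in null arrays, against 6.27, 6.62 and 7.28 in wild type arrays. Wild type replicate 1 fell among the null values and wild type replicate 3 stood above all others. Dlx5 differed by -0.39 ± 0.28 (SE), with a 95% interval from -1.09 to 0.32 (limma adjusted p = 0.981), and by -0.11 without wild type replicate 3. Without wild type replicate 1 it was -0.62. Within title number 14 it was 0.05, and within 16 it was -0.61. Its neighbour Dlx6 was not above background in any array, with values up to 3.60 in null and 3.49 in wild type arrays.

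Alpl, the phosphatase of osteoblast membranes, read 7.84, 7.96 and 7.71 in null arrays, against 7.78, 8.24 and 8.0 in wild type arrays. The groups overlapped, with wild type replicate 1 among the null values. Alpl differed by -0.17 ± 0.16 (SE), with a 95% interval from -0.57 to 0.23 (limma adjusted p = 0.981). Without wild type replicate 2 it was -0.06, and within title numbers 14 and 16 it was 0.06 and -0.28.

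**Figure D3:**
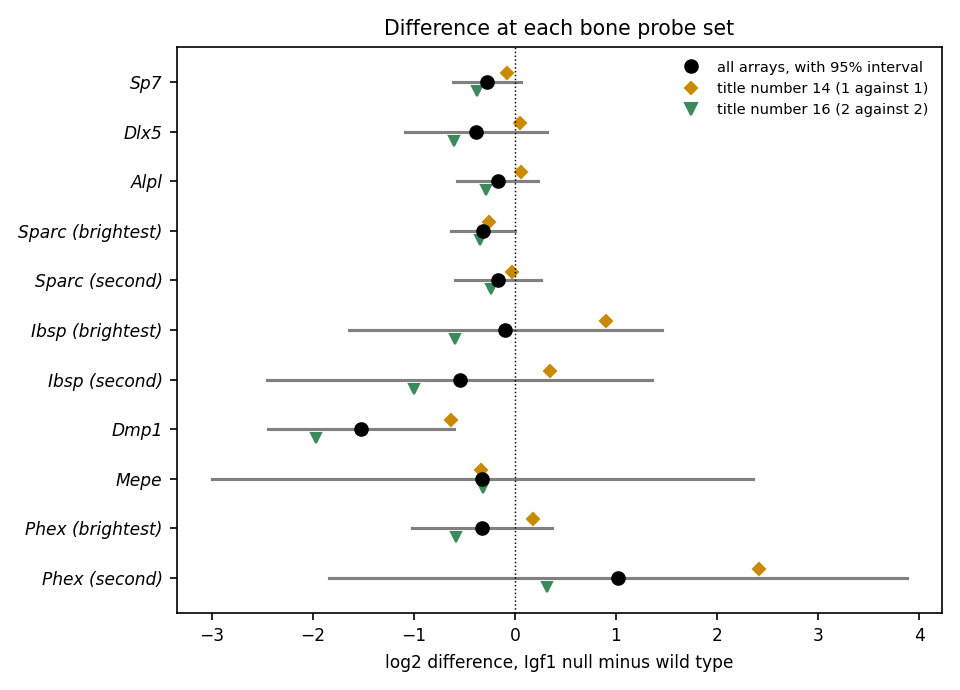
Log2 difference, Igf1 null minus wild type (horizontal axis), at each bone probe set, as black points with 95% intervals from limma, diamonds for title number 14 and triangles for title number 16. The intervals are not adjusted for the number of probe sets. Those of Dmp1, from -2.44 to -0.60, and of the brightest Sparc probe set, from -0.63 to -5.7e-04, do not include 0. At Dlx5, Alpl, Ibsp and the brightest Phex probe set the title numbers fall on opposite sides of 0.

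Differences were also taken within each title number. Among the 11 probe sets, 10 were lower in null at title number 16 and 5 at title number 14. The 11 include Mepe and the second Phex probe set, both at background, and title number 14 is 1 array against 1. The shares of all probe sets lower within each title number were not taken, so these counts have no background beside them. Averaged over the 8 genes at their brightest probe sets, the deviation from each gene's mean over all arrays was 0.21, -0.34 and -0.51 in null replicates 1 to 3, against 0.23, 0.42 and -0.0015 in wild type replicates 1 to 3. Mepe, at background, is part of these means; over the other 7 genes they were 0.13, -0.20 and -0.60 in null, against 0.10, 0.29 and 0.27 in wild type arrays. Null replicate 1 stood within the wild type range with and without Mepe, and the other null arrays stood below it. Null replicate 1 was also among the 3 arrays lowest in Y-linked signal, with wild type replicates 1 and 3, whereas null replicates 2 and 3 were not. Wild type replicate 2 was not among them either, and it had the highest mean of all arrays with and without Mepe. The part of the sex of the embryos in these values was not tested. In 4 of the 8 genes (Sp7, Ibsp, Dmp1 and Phex) null replicate 1 was the highest and null replicate 3 the lowest null array, against 19% of all genes; this pattern was looked for after the values were seen.

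Several genes of osteoclasts and hypertrophic cartilage also had null replicate 1 at the top and null replicate 3 at the bottom of the null arrays. So did the skeletal muscle markers, whereas the chondrocyte genes as a group did not. Osteoclasts resorb mineralised cartilage and bone, and hypertrophic chondrocytes precede bone in a cartilage template. Acp5, the osteoclast phosphatase, read 8.57, 5.44 and 3.40 in null arrays, against 8.39, 7.77 and 7.50 in wild type arrays. Null replicate 1 was above all wild type arrays, and null replicate 3 was not above background. The gelatinase gene Mmp9 read 9.78, 7.55 and 6.92 in null and 8.95, 8.83 and 8.76 in wild type arrays. Ctsk, the collagen-degrading cathepsin of osteoclasts, read 9.92, 8.65 and 8.55 in null and 10.17, 9.75 and 9.70 in wild type arrays. For both genes null replicates 2 and 3 were below every wild type array and null replicate 1 was not. Nfatc1, another osteoclast gene, did not share the order, with null replicate 3 its highest null array. It read 6.97, 6.75 and 7.01 in null and 6.98, 7.33 and 7.18 in wild type arrays. Mmp13, a collagenase of hypertrophic chondrocytes and osteoblasts, read 9.18, 7.34 and 5.54 in null and 9.04, 8.41 and 8.02 in wild type arrays. Col10a1, the collagen of hypertrophic cartilage, read 8.48, 7.98 and -0.92 in null and 6.79, 7.68 and 7.56 in wild type arrays, so that it was not above background in null replicate 3. Mmp13 and Col10a1 were named after their values were seen.

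Summed over the 4 osteoclast markers read (Acp5, Ctsk, Mmp9 and Calcr), the log2 of the summed signal was 11.13, 9.32 and 8.99 in null and 10.96, 10.59 and 10.51 in wild type arrays. Calcr was above 3.87 in 1 array, wild type replicate 1. The 6 chondrocyte markers summed to 14.15, 14.46 and 14.59 in null and 14.51, 14.72 and 14.76 in wild type arrays, with null replicate 1 the lowest of all. Skeletal muscle markers, from tissue outside the capsule, summed to 14.25, 13.69 and 12.55 in null and 13.59, 12.52 and 14.24 in wild type arrays (6 of 6 measured). In each of these muscle genes null replicate 1 was the highest and null replicate 3 the lowest null array, so this order was not particular to skeletal tissue. The 4 macrophage markers summed to 9.73 to 10.15 in null and 10.10 to 10.20 in wild type arrays. Blood markers, of which the globin genes were not above background, summed to 6.94 to 7.58 in null and 7.89 to 8.34 in wild type arrays, without overlap. The part of these other tissues in the bone values was not tested.

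Other genes of bone and its surroundings were counted over lists at the level of genes, and 0 members of any list passed an adjusted p of 0.05 in limma. Collagens and matrix proteins of bone were lower at all 14 measured of 16 listed genes, with a median of -0.20, and 2 had an unadjusted p under 0.05 with lower signal, against the 2.37% of all genes. These 2 were Omd, a keratan sulphate proteoglycan of bone (-0.50 ± 0.18 SE), and Col5a2, which joins type I collagen fibrils (-0.33 ± 0.12). Together with Col1a2, a chain of type I collagen (-0.23 ± 0.10), they were the 3 of 14 that lay lower without overlap between genotypes, against the 4.98% of all genes. Regulators of osteoblasts were lower at 12 and higher at 6 of 18 measured genes, with a median of -0.07. The bone morphogenetic protein gene Bmp2 differed by 0.40 ± 0.20, the vitamin D receptor gene Vdr by -0.37 ± 0.20 and the receptor gene Fgfr2 by -0.26 ± 0.15. Bmp2 thus ran opposite to the bone matrix genes in its mean.

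Regulators of mineral were lower at 4 and higher at 6 of 10 measured genes, with a median of 0.07. The means of Fgf23 and Ahsg, which are among the 6, were not above background, and without them the median was -0.05 (4 of 8 genes lower). The list included the osteocyte inhibitor Sost (0.79 ± 0.42 SE), the pyrophosphate transporter gene Ank (-0.26 ± 0.15) and Fam20c, the kinase of secreted mineral-binding proteins (-0.26 ± 0.17). Sost read 5.28, 4.06 and 5.29 in null and 3.62, 4.40 and 4.24 in wild type arrays. Its groups overlapped, and wild type replicate 1 was under the background measure. Cartilage genes were lower at 16 of 17 with a median of -0.35, and the osteoclast list was lower at 8 and higher at 4 of 12 with a median of -0.57. In the cartilage list Matn3, a cartilage matrix protein (-0.93 ± 0.22 SE), was the 1 gene with an unadjusted p under 0.05, and the next by p were Col9a1, a chain of type IX collagen (-0.26 ± 0.12), and Cnmd, the chondromodulin gene (-0.29 ± 0.16). Null replicate 1 was the highest and null replicate 3 the lowest null array in 6 of the 12 osteoclast genes and in 2 of the 17 cartilage genes, Mmp13 and Col10a1, against 4 of the 8 bone genes and 19% of all genes. Aggrecan (Acan), a main proteoglycan of cartilage, ran the other way, with 9.58, 10.30 and 10.60 in null and 10.13, 10.80 and 10.89 in wild type arrays. Smallest by p in the osteoclast list were Ctsk (-0.83 ± 0.41 SE), Nfatc1 (-0.26 ± 0.14) and Acp5 (-2.09 ± 1.32). The osteoclast median was -0.37 over the 7 genes whose mean was above background. In 4 of these 7, null replicate 1 was the highest and null replicate 3 the lowest null array. The same order held in 4 of the 7 bone genes and in 19.1% of all genes with a mean above background.

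**Figure D4:**
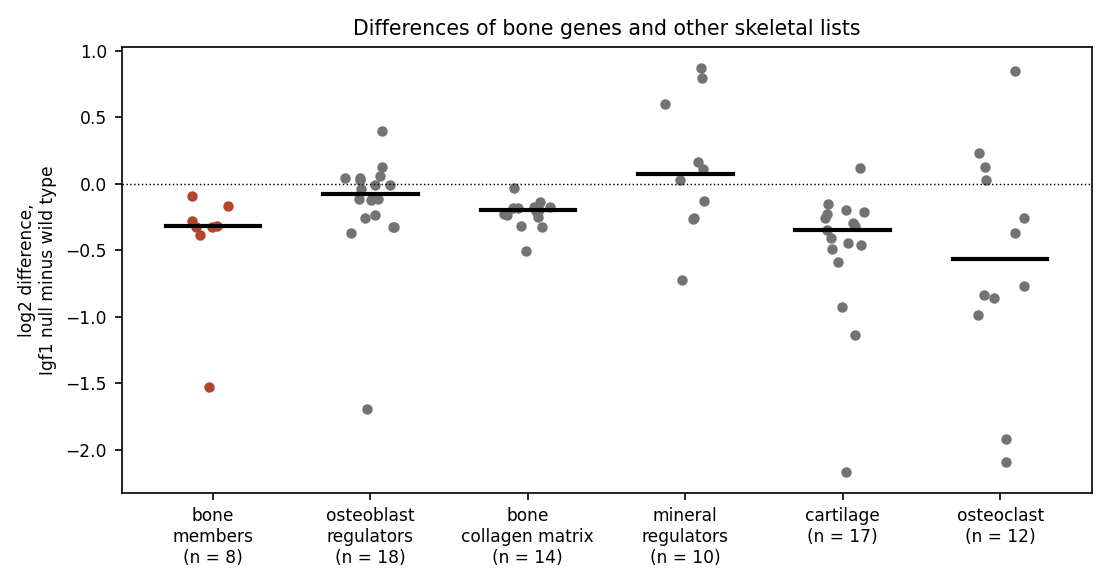
Log2 difference, Igf1 null minus wild type (vertical axis), of each gene at its brightest probe set (points) with the median of its list (bars), for the 8 measured bone members and 5 other lists. The osteoclast, cartilage, bone and collagen medians are below 0 at -0.57, -0.35, -0.32 and -0.20, and the mineral regulators' median is 0.07, or -0.05 without the 2 genes at background.

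Among genes above the median level that are not members, those nearest to Dmp1 in their pattern over the 6 arrays, by root mean square distance of centred log2 values, were Ctsk (0.430), Alas2, the first enzyme of heme synthesis in red cells (0.433), the angiogenic factor gene Vegfa (0.441), the stress-induced inhibitor of TOR signalling Ddit4 (0.496) and the metallothionein gene Mt1 (0.561). Their differences ran from -0.98 for Vegfa to -0.60 for Mt1. Nearest to the mean pattern of the 8 members, Mepe included, were Tfpi, an inhibitor of coagulation (0.102), the phosphatase gene Dusp1 (0.126), Tent5c (0.138), the metalloproteinase inhibitor gene Timp1 (0.144) and the leukocyte plastin gene Lcp1 (0.149). Without Mepe 1 of these 5, Dusp1 (0.122), was among the nearest 5, so the order depends on a gene at background. The distance carries no test and was taken over 6 arrays. Among members above background, Sp7 and Alpl were nearest to each other (0.153), and Ibsp and Dmp1, neighbours on the chromosome, were farthest apart (0.797). The distance is not scaled, so genes that vary little lie near each other. Pearson correlation over the 6 arrays ranked these members otherwise. It was highest for Sp7 and Dmp1 (0.967) and lowest for Sparc and Ibsp (-0.250). For Sp7 and Alpl it was 0.614, and for Ibsp and Dmp1 0.497.

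Genes next to a member on its chromosome were read where they had a probe set. Dspp, the dentin gene before Dmp1, had group means of -2.02 in null and -2.88 in wild type arrays, not above background. Beside Sp7, the nuclear pore gene Aaas and the transcription factor gene Sp1 were higher in each null array than in each wild type array, by 0.32 ± 0.11 (SE) and 0.24 ± 0.11 (limma adjusted p = 0.972 and 0.998), where 5.62% of genes separated in that direction and Sp7 itself separated in the other. Rap1gap and Ece1, on either side of Alpl, and Atox1, beside Sparc, overlapped between genotypes, with differences of 0.24 ± 0.55 (SE), 0.14 ± 0.20 and 0.09 ± 0.10.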

How the data were processed

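Biotin-labelled cRNA was hybridised to Affymetrix arrays, per the labels' protocols. The deposited table holds 1 log2 value for each of 22690 probe sets on each of 6 arrays; the log base was inferred from the values, and its summarisation, background correction and scaling were not given in the sources used here. Deposited array medians differed, so 64 control probe sets were left out and the other 22626 were quantile normalized. Of these, 20380 were annotated to 1 gene, 691 to several and 1555 to none in the platform annotation. Symbols were checked by Entrez identifier against RefSeq (GRCm38.p6); 29 probe sets had no match and 0 symbols changed. A gene was represented by its brightest probe set.

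Genotypes, taken from the titles, were the 1 factor of a linear model fitted by lmFit and moderated by eBayes (limma 3.58.1, R 4.3.3). Tests were two-sided, and p-values were adjusted by Benjamini-Hochberg across every probe set, or every gene, and called at 0.05. The number of arrays limits the precision. The procedure was tested on simulated data with noise independent between arrays and planted differences larger than those of all members. That run does not show how the procedure performs at differences as small as these. Same-numbered null and wild type arrays deviated together from their group means (correlations of 0.189, 0.376 and 0.143 over probe sets above the median level). For arrays with different numbers the correlations ran from -0.262 to 0.086. The labels do not say that a replicate number marks a shared litter, batch or day. Standard errors, intervals and p-values are therefore from the fit without pairing, unless an alternative is named. A fit with the replicate number as a block was run beside the main one. The other alternatives were the deposited values, median centring, the title number as a block, variance settings, array weights (statmod 1.5.0), a filter at the 40th percentile, a pseudocount of 32, the mean of a gene's probe sets, and leaving out arrays. Counts of groups without overlap under these settings, differences within title numbers, and medians over genes whose mean exceeded the background measure, were chosen after the data were seen.

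The members and lists were chosen with earlier results of these data known. Genes named were all members and Igf1, the 3 of each list with the smallest p, the cell type markers, the 5 nearest patterns to Dmp1 and to the members' mean, and neighbours on the chromosome. Ank and Ankh were counted as 1 gene.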

Additional observations from a re-analysis of the deposited data

How the results depend on the processing

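No bone probe set passed an adjusted p of 0.05 under any alternative, and the counts over all probe sets and genes stayed at 0 except for 1 gene (Hsd17b3) without null replicate 3, so leaving out 1 array gave 0 to 1. The median difference of the bone genes (-0.32) was below 0 under all 17 alternatives, 1 of them without the gene at background and chosen after the data were seen; it was -0.46 with the values as deposited, whose median difference over all probe sets was -0.15, -0.48 without both arrays of title number 14, and -0.49 to -0.26 with single arrays left out. The replicate block left every difference as it was and changed no call (median -0.32, 0 genes past the threshold, 0.812 as the limma adjusted p of Dmp1). Signs turned for Ibsp (3.8e-04 with median centring and 0.025 with array weights; -0.65 to 0.54 and, at the second probe set, -1.21 to 0.22 with single arrays left out), for the second Sparc probe set (0.026 with median centring) and for Mepe (0.054 with array weights; -1.38 to 0.27 with single arrays left out); the cause was not tested. Without null replicate 3 the difference of Ibsp was 0.54. Dmp1, Sp7, Dlx5, Alpl and the brightest Sparc and Phex probe sets stayed below 0 in all 15 alternatives. Bone genes without overlap, 3 of 8 as reported, numbered 2 with the deposited values or median centring, 4 without null replicate 1 or wild type replicate 3, 5 without wild type replicate 1 and 6 without both arrays of title number 14, against 4.62%, 4.28%, 9.35%, 8.04%, 10.4% and 15.9% of all genes. Over genes the filter left 6 of the 8 and removed Dmp1 and Mepe, whereas over probe sets it left Dmp1. Mepe and the second Phex probe set, not above background, carry no information on these genes.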
